A study of Homo sapiens with 44 samples.

Results

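The transcripts TBX5-AS1, TRDN-AS1, MEF2C-AS1, LEF1-AS1, SOX2-OT and HAND2-AS1 were followed through the differentiation of human embryonic stem cells into heart muscle cells. They are 6 of the 60499 genes in the count table, and all 6 passed the filter on low counts that left 22955 genes. They were chosen by name for their levels over the time course, and each was set beside the coding gene it is named for. Their levels and differences between groups are therefore given as a description with no test. The coding genes entered only as partners of these transcripts, and they carry test values. Over the 12 group means, each coding gene correlated with its transcript, with r from 0.709 (TRDN) to 0.979 (TBX5). The p-values of the coding genes between days are therefore not free of that choice.

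The cells were H1, a long-established line of human embryonic stem cells, each library came from the RNA of a single culture well, and the 44 libraries fell into 12 groups. Cells labelled pluripotent grew on the laminin LN-521, and the cells of every other group grew on LN-521 mixed with LN-221. A small molecule that inhibits GSK3 (CHIR99021) was given at day 0, which is known to switch on Wnt signalling, and an inhibitor of Wnt production (IWP2) followed at day 3. Wells were taken at days 0, 1, 3, 5, 7, 9, 11, 14, 20, 30 and 90, with 3 wells each except for days 5, 7, 9 and 11, which had 5; the pluripotent group also had 3. No genetic change, untreated culture of the same age or second line was among the groups, so day in culture, the 2 inhibitors and the change of medium after about day 10 cannot be told apart. The deposited sample table numbers the wells as biological replicates, and whether they came from separate differentiations is not given in the sources used here, so p-values measure the spread between wells.

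Many genes of developmental regulators have a long noncoding RNA beside them, read from the opposite strand or starting close to the coding gene's own start. Where the 2 starts lie back to back, a shared stretch of open promoter can serve both directions. Such RNAs are usually spliced, scarce and restricted to particular cell types. Of the coding genes here, HAND2, TBX5 and MEF2C encode transcription factors of the heart progenitor and the heart muscle cell, LEF1 encodes a DNA-binding partner of beta-catenin in Wnt signalling, SOX2 encodes a core pluripotency factor, and TRDN encodes triadin, which anchors the calcium release complex of the sarcoplasmic reticulum.

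In the GENCODE 29 annotation on GRCh38, 5 of the 6 transcripts lie on the strand opposite to their coding gene, and SOX2-OT lies on the same strand as SOX2. The word antisense thus fits 5 of the 6. HAND2-AS1 (ENSG00000237125, chr4:173527270-173659696, plus strand) and HAND2 (ENSG00000164107, minus strand) shared 867 bases of exon, which is 24.1% of the exon length of HAND2. TBX5-AS1 (ENSG00000255399, chr12:114408191-114412831, plus strand) shared 252 exon bases with TBX5 (ENSG00000089225), MEF2C-AS1 (ENSG00000248309, chr5:88883328-89466398) shared 422 with MEF2C (ENSG00000081189), and LEF1-AS1 (ENSG00000232021, chr4:108167525-108256836) shared 279 with LEF1 (ENSG00000138795). TRDN-AS1 (ENSG00000235535, chr6:123389421-123510241) lies wholly inside TRDN (ENSG00000186439), with 0 shared exon bases. SOX2-OT (ENSG00000242808, chr3:180989762-181836880) spans 847 kb and holds the whole of SOX2 (ENSG00000181449) within its body, also with 0 shared exon bases. The libraries were made with a stranded kit, but whether the counting used the strand is not stated. Reads from shared exons, and any unspliced reads across TRDN or SOX2-OT, could therefore have been given to either gene.

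**Figure D1:**
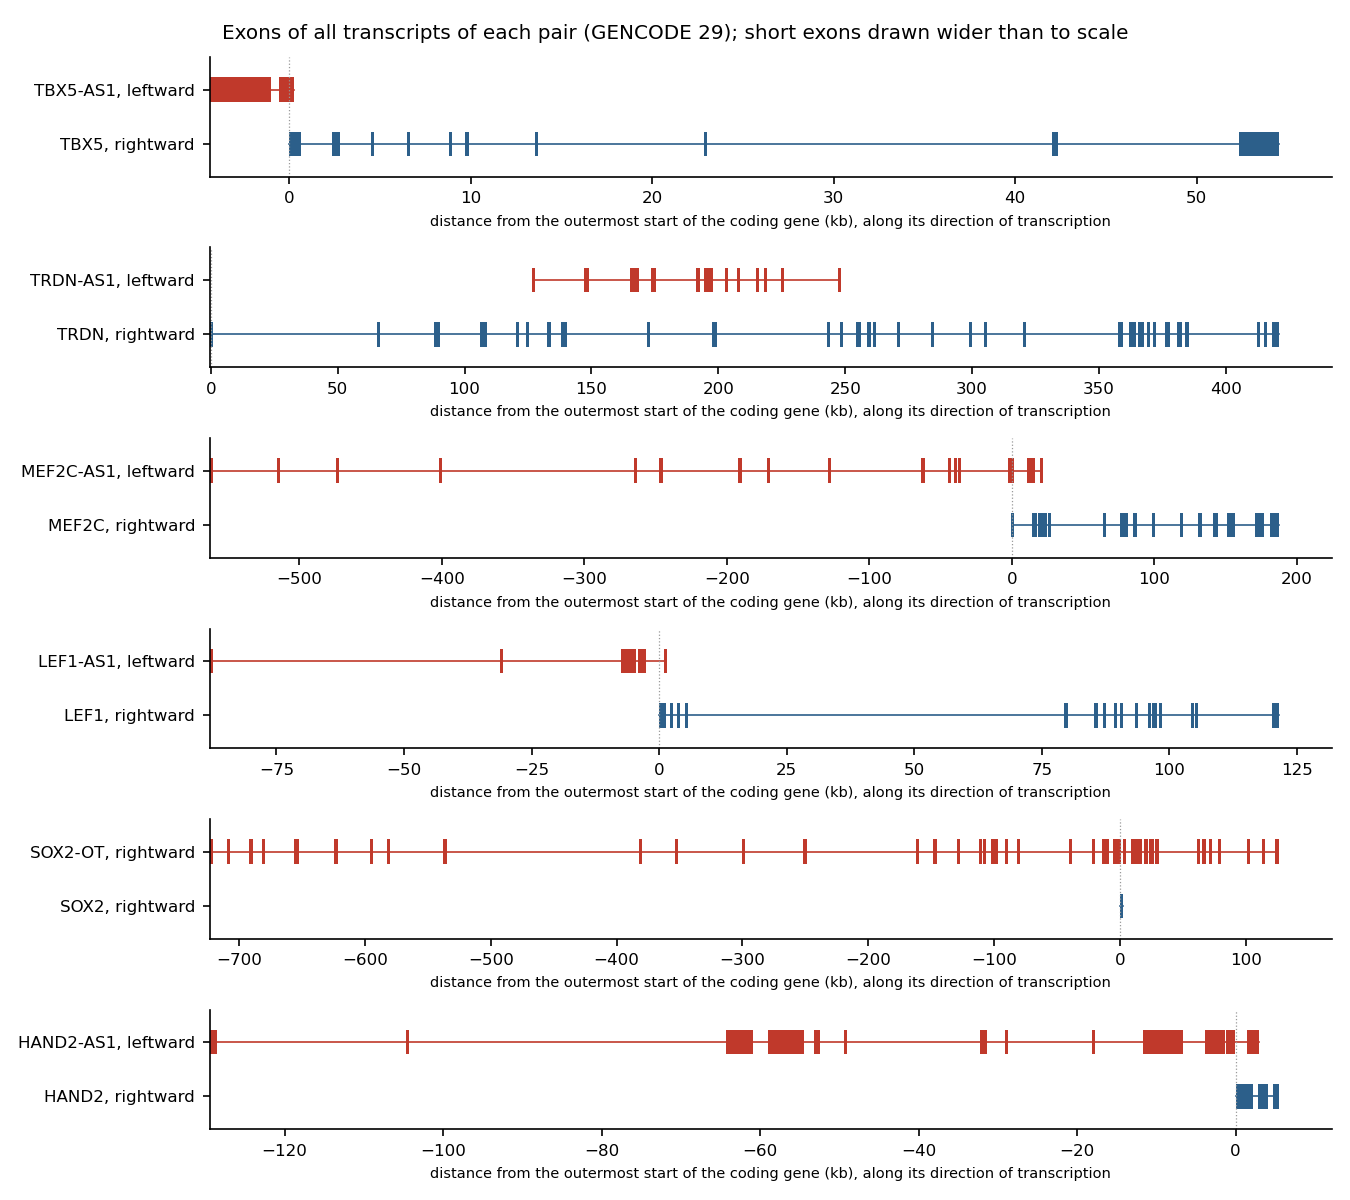
The 6 loci drawn to scale by distance in kb from the outermost start of the coding gene along its direction of transcription, with the exons of each noncoding transcript and of its coding gene as blocks on a line for each gene, and with very short exons widened to stay visible. Exons overlap at 4 loci, TRDN-AS1 lies inside TRDN, and SOX2 lies inside SOX2-OT on the same strand.

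The closest annotated transcript starts of a pair were 182 bases apart at TBX5, 9 at MEF2C, 69 at LEF1, 142 at HAND2, 822 at SOX2 and 76497 at TRDN. In RefSeq (GRCh38.p14), 3 of the 6 pairs start head to head, with 182 bases between the starts of TBX5-AS1 and TBX5, 145 for MEF2C and 228 for HAND2. The stretches at TBX5 and MEF2C lie wholly within annotated untranslated exon sequence. Sequence is shown for the pairs with the closest and the loosest relation in the data described further on: the stretch between HAND2-AS1 and HAND2, the promoter of TBX5, which lies inside the gene of TBX5-AS1, and the promoter of TRDN-AS1, which starts far from that of TRDN. Capitals mark matches to any of 5 motifs searched on both strands. These were TATAAA for the TATA box, CCAAT for the binding motif of NF-Y, GGGCGG for that of Sp factors, GATAAG for that of GATA factors and CACGTG for the E-box, and none of the matches overlapped another.
HAND2-AS1 to HAND2, chr4:173530230-173530457, plus strand: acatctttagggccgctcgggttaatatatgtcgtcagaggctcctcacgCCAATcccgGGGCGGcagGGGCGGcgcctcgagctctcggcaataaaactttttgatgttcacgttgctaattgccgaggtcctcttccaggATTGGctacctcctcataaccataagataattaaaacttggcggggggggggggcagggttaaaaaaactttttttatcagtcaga
TBX5, chr12:114408443-114408692, minus strand: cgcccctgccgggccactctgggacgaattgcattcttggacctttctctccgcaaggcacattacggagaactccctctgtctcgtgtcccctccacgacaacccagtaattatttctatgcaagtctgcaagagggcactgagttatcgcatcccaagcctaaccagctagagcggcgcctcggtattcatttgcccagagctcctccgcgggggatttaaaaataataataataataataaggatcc
TRDN-AS1, chr6:123439354-123439603, plus strand: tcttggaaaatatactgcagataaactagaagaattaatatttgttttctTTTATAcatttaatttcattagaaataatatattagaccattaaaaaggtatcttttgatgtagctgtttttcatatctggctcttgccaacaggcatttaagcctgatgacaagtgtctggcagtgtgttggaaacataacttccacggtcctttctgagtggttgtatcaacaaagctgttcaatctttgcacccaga

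The HAND2 stretch held 2 matches to CCAAT, one on each strand, and 2 to GGGCGG. Of all 35116 RefSeq promoters taken at the same length, 30.3% held CCAAT and 41.7% held GGGCGG, so both motifs are common. Its GC content was 50.9% against a median of 58.8%, with 13 CpG against a median of 10. The TBX5 promoter held 0 matches to the 5 motifs and 13 CpG. The TRDN-AS1 promoter had a GC content of 33.6%, 1 CpG and 1 match to TATAAA, a motif found in 10.7% of promoters at its length of 250 bases. The absence of a match says only that these letters are not in this window.

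Libraries held between 6937136 and 33498022 estimated counts (median 26010763), and levels are given as counts per 1000000 counts of the library after TMM scaling (CPM). A level of 3 counts, taken as the floor, corresponded to 0.0919 to 0.409 CPM, so a value of 0 allows a level up to that floor, for counting error only. Summed CPM of 5 pluripotency markers ran from 5465 to 5892 in the pluripotent wells and from 7.00 to 17.7 at day 90, and that of 6 heart muscle markers from 31.1 to 72.9 and from 14991 to 50664. Summed CPM of 6 endoderm and liver markers reached 2431 to 4008 at day 14 and ranged from 158 to 8596 between the wells of day 11, so wells of the same day differed in their cell mixture. The RNA integrity number (RIN) ran from 7.4 to 10, and the lowest depths and the lowest RIN fell on wells of days 14, 20 and 30. Libraries ran on 5 sequencing lanes, and no group had more than 2 wells on a lane, so comparisons between groups could not be tested within a lane.

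HAND2-AS1 went from near the floor in pluripotent cells to its highest level at day 90. Its level was 0.0926 ± 0.0528 CPM (SD, n = 3) in pluripotent wells and 0.169 ± 0.0594 at day 0. At day 1 the 3 wells held 0.337, 0.482 and 0.311 CPM, and at day 3 they held 2.42, 1.15 and 1.06. All day 3 wells lay above all day 1 wells, which lay above all day 0 wells. The 5 wells of day 5 held 15, 8.54, 5.52, 10.2 and 15.8 CPM, and day 7 was lower on average at 6.62 ± 1.58 (n = 5), with overlapping ranges. Day 9 gave 11.2 ± 1.13 CPM and day 11 gave 19.8 ± 7.34 (n = 5 each). The wells of day 14 held 21.5, 20.0 and 10.2 CPM, those of day 20 24.6, 30.5 and 19.1, those of day 30 52.9, 87.3 and 39.7, and those of day 90 85.2, 273 and 143. Day 30 lay wholly above day 20, while day 90 overlapped day 30 by 1 well. In bulk RNA, fewer cells that express a gene and less of its RNA per cell cannot be told apart, here and for every level that follows.

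HAND2 itself, the transcription factor of the second heart field and the right ventricle, rose by day 3 and again late. It stood at 0.338 ± 0.119 CPM at day 0, where day 1 was above it by 1.48 on the log2 scale without passing the test (adjusted p = 0.0506), and at 20.0, 5.92 and 5.85 in the wells of day 3, a log2 fold change of 4.95 ± 0.51 (SE, edgeR quasi-likelihood test, Benjamini-Hochberg adjusted p = 1.22e-09). Day 5 averaged 109 ± 27.1 CPM (n = 5), above the 60.3 ± 8.60 of day 7 and the 63.4 ± 12.8 of day 9, with overlapping ranges. Day 9 was above day 3 by 2.58 ± 0.38 on the log2 scale (edgeR adjusted p = 1.02e-06). The wells of day 30 held 129, 201 and 89.7 CPM and those of day 90 194, 459 and 289. Day 30 was above day 9 by 1.14 on the log2 scale (edgeR adjusted p = 0.00630), and this call was lost without day 30 replicate 10 (0.79, adjusted p = 0.0906). The rise from day 30 to day 90 (1.16 ± 0.37, adjusted p = 0.0451) was lost without any of 4 libraries, day 30 replicates 1 and 3 and day 90 replicates 4 and 5, with adjusted p from 0.0761 to 0.225. It was also lost when edgeR was fitted to only these 2 groups (adjusted p = 0.482). With limma on log2(TPM + 1) it was 0.22 (adjusted p = 0.714), a scale on which the median gene shifted by -0.87 in this comparison.

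From day 5 on, the noncoding share at the HAND2 locus was higher on later days. Before that it was high on few counts: the day 0 wells gave 50, 50 and 50 counts per 100 HAND2 counts, on 6 to 12 HAND2 counts, the day 1 wells 62.5, 31.3 and 40, and the day 3 wells 12.1, 19.5 and 18.1. HAND2-AS1 gave 9.89 ± 2.18 counts per 100 HAND2 counts on day 5, 18.1 ± 2.96 on day 9, 28.5 ± 2.16 on day 20, 42.8 ± 1.79 on day 30 and 51.0 ± 7.93 on day 90. The 3 wells of day 30 gave 40.9, 43.4 and 44.3, and none overlapped the 26.1 to 30.4 of day 20. Both genes were thus higher late, with the log2 fold change of HAND2-AS1 from day 9 to day 30 (2.42 ± 0.33) larger than that of HAND2 by 1.28. Per length, on the TPM scale, the median ratio of HAND2-AS1 to HAND2 was 0.108 at day 5 and 0.623 at day 90, so the coding gene stayed the more abundant.

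TBX5-AS1 was just above the floor of 3 counts at day 3, far higher at day 5 and higher again at day 11. It was at 0.0336, 0 and 0 CPM at day 0 and at 0.238, 0.149 and 0.189 at day 3. The wells of day 5 held 5.61, 3.91, 1.24, 5.35 and 4.39 CPM, all above every day 3 well. Means from day 7 on lay between 6.18 ± 2.77 (day 9, n = 5) and 13.1 ± 4.45 (day 90, n = 3), and each of these groups overlapped the next in order of level. The wells of day 11 held 7.89 to 14.7 CPM, all above every day 5 well. At 13.1 CPM, day 90 was at least 126-fold higher than day 0, whose wells were all at or below 3 counts. Within a day the wells differed severalfold: those of day 14 held 12.4, 13.8 and 3.00 CPM, those of day 20 11.8, 13.5 and 4.09, and those of day 30 16.2, 12.6 and 4.72.

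TBX5, a T-box factor needed for atrial and left ventricular identity, was lowest in the same wells on several days. It stood at 0.169 ± 0.0884 CPM at day 0 and 1.75, 0.968 and 0.302 at day 3, a log2 fold change of 2.53 ± 0.74 (edgeR adjusted p = 0.00951) that was lost without day 3 replicate 1 (1.88, adjusted p = 0.106). That call was also lost with limma on log2(TPM + 1) (0.27, adjusted p = 0.840) and on log2(TPM + 0.1) (1.26, adjusted p = 0.113). TBX5 rose by 5.62 ± 0.55 from day 3 to day 9 (edgeR adjusted p = 2.87e-10), to 49.4 ± 15.4 CPM. No change passed the test from day 9 to day 30 (0.09 ± 0.40, adjusted p = 0.889) or from day 30 to day 90 (-0.39, adjusted p = 0.652). At day 5 the well lowest in TBX5-AS1 (1.24 CPM) was also lowest in TBX5 (14.3 CPM). The same held for the wells at 3.00 (day 14), 4.09 (day 20) and 4.72 (day 30), with 42.9, 39.2 and 20.5 CPM of TBX5. TBX5-AS1 gave 9.68 ± 2.62 counts per 100 TBX5 counts at day 5, 21.6 ± 1.51 at day 30 and 31.9 ± 6.13 at day 90 (25.6 to 37.8 between wells). Per length the median ratio was 0.0874 at day 5 and 0.295 at day 90.

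TRDN-AS1 was the latest of the 6 to appear and did so long after TRDN. No well from the pluripotent cells to day 9 exceeded 0.393 CPM, and day 11 gave 0.267 ± 0.050 (n = 5). The wells of day 14 held 1.61, 0.970 and 1.06 CPM, those of day 20 8.44, 13.8 and 3.21, and those of day 30 20.3, 39.4 and 68.4. Each of these groups lay wholly above the one before. Day 90 gave 54.3, 65.6 and 84.3 CPM and overlapped day 30. Day 90 was at least 674-fold higher than day 1, whose wells held 3 counts or fewer.

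TRDN was measurable in every well, also in pluripotent cells (4.92 ± 0.796 CPM), and stood at 14.2 ± 0.263 at day 0. Its lowest level came at day 5, at 1.69 ± 0.314 CPM (1.2 to 2.01), below every other well of the study, and day 7 was back at 26.7 ± 5.11. TRDN rose from day 3 to day 9 by 1.63 ± 0.36 (edgeR adjusted p = 0.000367), to 49.1 ± 16.8 CPM, while TRDN-AS1 stayed at 0.209. That call was lost on the TPM scale (0.33, adjusted p = 0.640), on which the median gene shifted by -0.67 in the same comparison. From day 9 to day 30 TRDN differed by 0.96 ± 0.32 (adjusted p = 0.0209), just under the fold change of 2 needed for a call, and TRDN-AS1 by 7.65 ± 0.50. TRDN-AS1 gave 0.450 counts per 100 TRDN counts on day 9, 1.75 ± 0.499 on day 14, 8.66 ± 4.69 on day 20, 56.4 ± 51.5 on day 30 and 49.6 ± 25.6 on day 90. The wells of day 30 gave 28.3, 25.2 and 116, and those of day 90 50.5, 23.5 and 74.7, so the ratio differed more than 3-fold between wells of a day. Per length, the median ratio went from 0.0153 at day 9 to 0.904 at day 30 and 1.43 at day 90, so that in these libraries the noncoding transcript reached the level of the coding one.

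**Figure D2:**
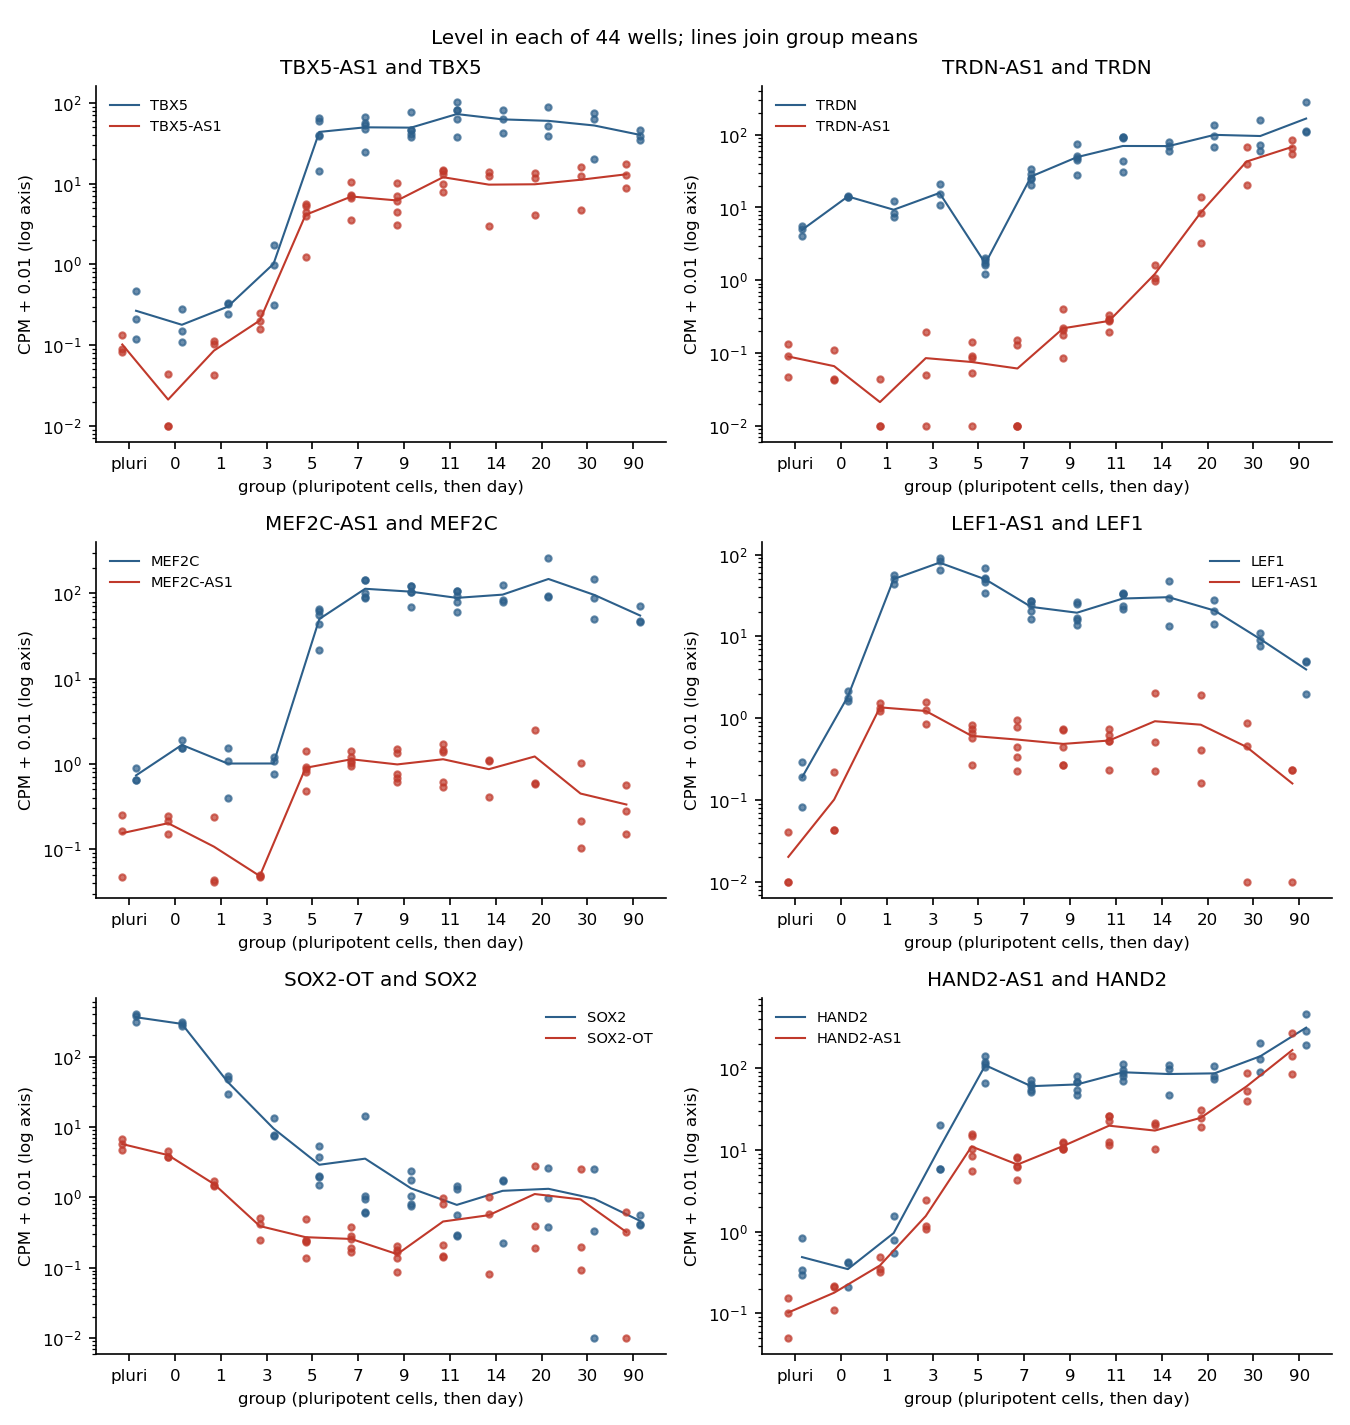
Level of each noncoding transcript and its coding gene by day, as CPM + 0.01 per well on a log axis, with points for wells and lines joining the group means. TRDN-AS1 stayed at or below 0.393 CPM through day 9 while TRDN rose, and SOX2-OT was highest in pluripotent wells. HAND2-AS1 and TBX5-AS1 were higher at day 5 than at day 3, as were their coding genes. From day 5 to day 90 the mean noncoding counts per 100 coding counts went from 9.89 to 51.0 at HAND2. At TBX5 they went from 9.68 to 31.9 over the same days.

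MEF2C-AS1 was scarce throughout, with at most 39 counts and a median of 13 counts per library. Each day 3 well held 1 count, or 0.0382 ± 0.00132 CPM, and day 0 gave 0.191 ± 0.0483. The 5 wells of day 5 ranged from 0.471 to 1.39 CPM (0.886 ± 0.331), all above every day 3 well, and day 7 gave 1.12 ± 0.177. Its highest mean was at day 20, where the wells held 0.576, 2.46 and 0.584 CPM, at least 10.1-fold above the floor of day 3. In order of mean level, every group overlapped its neighbour, so neighbouring ranks are not resolved, while groups farther apart in that order, such as days 3 and 5, did not overlap. MEF2C, a MADS-box factor of heart and skeletal muscle, rose from 0.998 ± 0.229 CPM at day 3 to 104 ± 21.7 at day 9 (log2 fold change 6.70, edgeR adjusted p = 2.04e-13). At day 20 its wells held 92.9, 258 and 90.4 CPM, high in the same well as MEF2C-AS1. The noncoding share was small and lower late: 1.84 ± 0.397 counts per 100 MEF2C counts at day 5, 0.919 at day 9 and 0.540 at day 30.

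LEF1-AS1 was the only one of the 6 with its highest mean at day 1, the day after the GSK3 inhibitor was given. Pluripotent wells held 0, 0.0306 and 0 CPM and day 0 wells 0.0336, 0.0333 and 0.207. Day 1 wells held 1.31, 1.51 and 1.21 CPM and day 3 wells 1.55, 1.27 and 0.830, all above every day 0 well. Day 1 was at least 11.2-fold above the floor of the pluripotent wells. From day 5 to day 11 means lay between 0.475 ± 0.229 and 0.598 ± 0.211 CPM. The later wells scattered: day 14 held 2.01, 0.216 and 0.499, day 20 0.153, 1.92 and 0.402, and day 30 0.448, 0.859 and 0. With at most 47 counts and a median of 11, these late values rest on few reads.

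LEF1 rose with it, from 1.83 ± 0.264 CPM at day 0 to 50.1 ± 6.55 at day 1 (log2 fold change 4.77 ± 0.39, edgeR adjusted p = 1.17e-11). The day 3 wells held 90.2, 83.3 and 65.2 CPM, all above day 1, and LEF1 then fell by 2.03 from day 3 to day 9 (adjusted p = 4.22e-07). It fell again from day 9 to day 30 (-1.08, adjusted p = 0.00647) and to day 90 (-1.21, adjusted p = 0.0243). The first of these calls was lost without day 9 replicate 1 (-0.98), day 9 replicate 2 (-0.94) or day 30 replicate 3 (-0.96), and the second without day 30 replicate 10 (adjusted p = 0.0546) or day 90 replicate 4 (adjusted p = 0.122). With limma on log2(TPM + 1) both were lost as well (-0.41, adjusted p = 0.547, and -1.25, adjusted p = 0.0517). The second was also lost when edgeR was fitted to only its 2 groups (adjusted p = 0.482). LEF1-AS1 gave 2.75 ± 0.673 counts per 100 LEF1 counts at day 1, 1.5 ± 0.224 at day 3 and 3.03 ± 2.63 at day 90.

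SOX2-OT was highest before differentiation and fell away over the first 3 days. Pluripotent wells held 5.75, 6.71 and 4.63 CPM, day 0 wells 4.46, 3.69 and 3.73, day 1 wells 1.72, 1.41 and 1.46, and day 3 wells 0.238, 0.410 and 0.491. Each group lay wholly below the one before. SOX2, which it surrounds, went from 362 ± 47.4 CPM to 292 ± 20.8, 43.6 ± 12.7 and 9.49 ± 3.32 in the same groups. SOX2 fell by 2.74 on the log2 scale from day 0 to day 1 (edgeR adjusted p = 0.00968, and 0.0527 without day 1 replicate 2), then further to day 3 (-4.94 against day 0, adjusted p = 3.51e-05) and to day 9 (-2.83 against day 3, adjusted p = 0.00206). SOX2-OT gave 1.56 ± 0.0962 counts per 100 SOX2 counts in pluripotent wells, 3.72 ± 1.06 at day 1 and 12 ± 8.68 at day 5, as SOX2 fell by more.

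Some late wells carried SOX2-OT again. At day 20 the wells held 0.384, 2.74 and 0.183 CPM, and at day 30 they held 0.0814, 2.5 and 0.185. At day 11 they held 0.954, 0.784, 0.200, 0.134 and 0.138, and at day 14 1.00, 0.0718 and 0.562. The RIN of the 5 wells of day 11, in the same order, was 8.6, 8, 9.5, 9.2 and 9.4, that of day 14 was 7.4, 9.8 and 8.2, that of day 20 was 8.2, 8 and 9.3, and that of day 30 was 9.5, 7.4 and 10, so the high wells were those of lowest integrity within their day. The day 20 well at 2.74 CPM had the smallest total of all libraries (6937136 counts), and its value rests on 20 counts. Within groups the deviation of SOX2-OT went with that of RIN over the 44 libraries (r = -0.821, permutation p = 3e-05, adjusted p = 0.00108 over 54 relations of the 6 transcripts with marker sums, RIN and depth; rho = -0.763, adjusted p = 0.00108), and r was -0.753 without the 2 wells farthest in RIN. The part of RIN in the late level was not tested. Of the neural markers PAX6, SOX1, SOX3, NES and TUBB3, the first was highest in the well with the most SOX2-OT on each of days 11, 14, 20, 30 and 90, and SOX1 on 4 of these 5 days. PAX6, a transcription factor of the neural tube and eye, held 0.652, 6.16 and 0.548 CPM in the day 20 wells and 0.0407, 2.42 and 0 in the day 30 wells. SOX1, a factor of early neural cells, held 0.230, 2.05 and 0 and then 0, 1.09 and 0. SOX3 was highest in that well on 2 of the 5 days and NES and TUBB3 on 0, and the sum of the 5 markers, most of it NES, was 431 CPM in the high day 30 well against 462 and 821 in the others. The part of neural cells in the late level was not tested. The log2 fold change of SOX2-OT from day 9 to day 30 was 2.5 ± 0.83 with all wells and -0.15 without day 30 replicate 10.

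**Figure D3:**
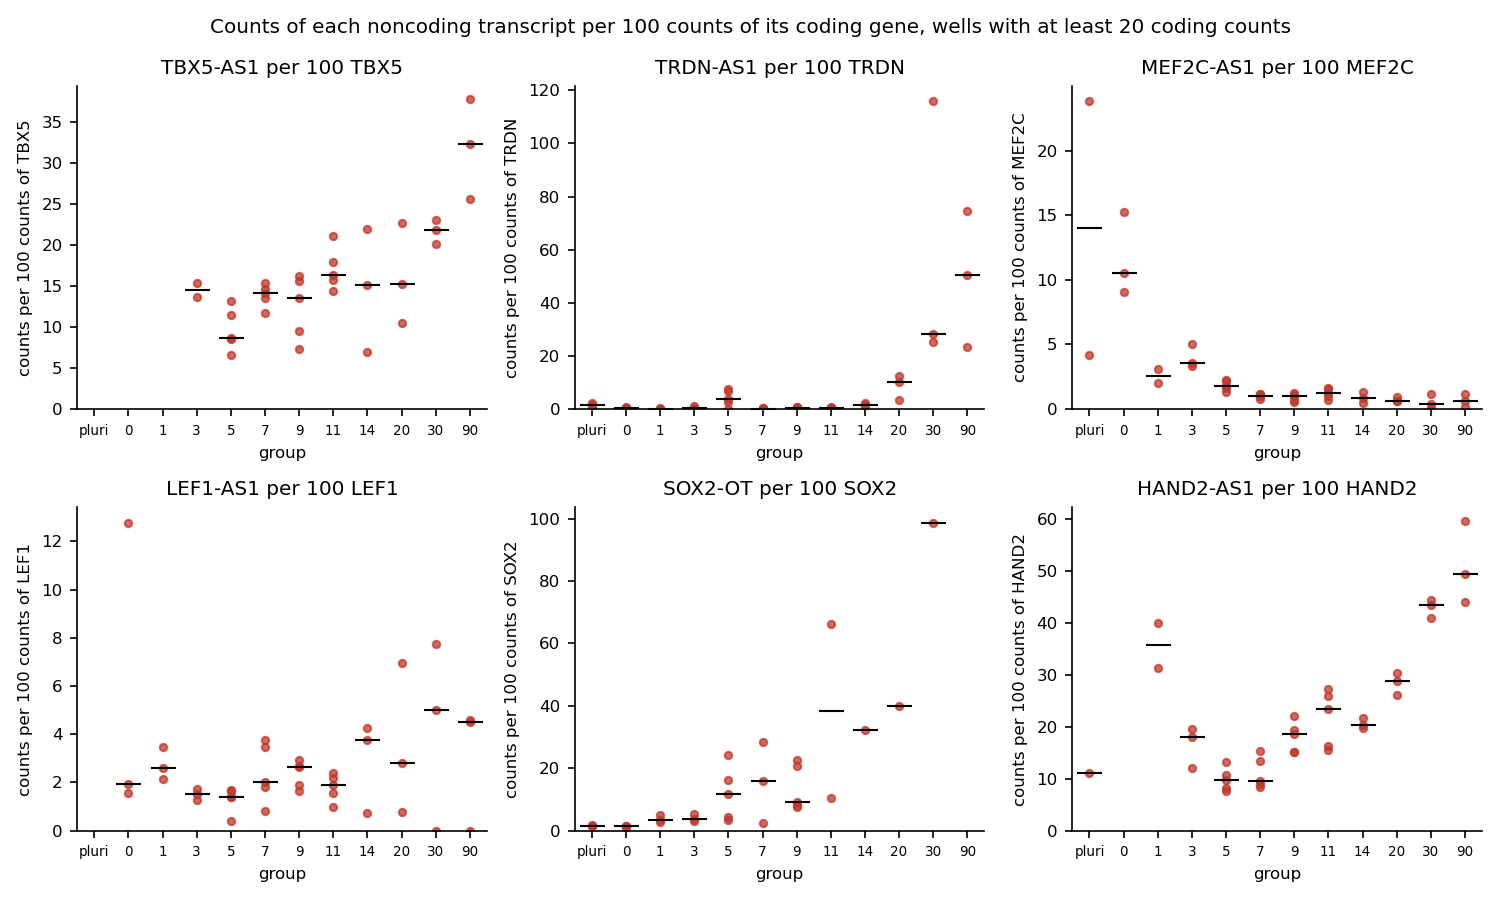
Noncoding counts per 100 counts of the coding gene in each well by group, on a linear axis from 0, for wells with at least 20 coding counts, with a dash at each group median. The mean ratio at HAND2 went from 9.89 at day 5 to 51.0 at day 90 and at TRDN from 0.450 at day 9 to 49.6 at day 90, while at MEF2C it was 1.84 at day 5 and 0.653 at day 90.

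The 5 comparisons between successive stages share groups, so they are set side by side and not counted as independent. Over all tested genes, a call (adjusted p under 0.05 and at least a 2-fold change) was made for 13.5% at day 1 against day 0, 16.6% at day 3 against day 0, 21.2% at day 9 against day 3, 18.9% at day 30 against day 9 and 5.09% at day 90 against day 30. Among the 527 tested genes with an antisense or overlapping name the shares were 14.8%, 15.9%, 18.8%, 19.2% and 3.8%. Of the 6 coding genes, LEF1 and SOX2 were called in the first, TBX5, LEF1, SOX2 and HAND2 in the second, all 6 in the third, LEF1 and HAND2 in the fourth and the same pair in the fifth. The CPM ranges of 3 of the 6 noncoding transcripts did not overlap between day 1 and day 0, against 55.3% of all tested genes. The counts were 5 of 6 for day 3 against day 0 (58.2% of all genes), 5 of 6 for day 9 against day 3 (44.9%), 2 of 6 for day 30 against day 9 (25.7%) and 0 of 6 for day 90 against day 30 (13.8%). Nothing is read from these counts, because the transcripts were chosen on the same levels.

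Noncoding and coding partner differed in the same direction in 6, 6, 6, 5 and 5 of the 6 pairs in these comparisons. The exceptions were SOX2-OT from day 9 to day 30 (2.5 ± 0.83, SOX2 -0.80 ± 0.97) and TBX5-AS1 from day 30 to day 90 (0.23 ± 0.49, TBX5 -0.39), the former resting on 1 well and the latter within its error. Some agreements also lay within error, such as TRDN-AS1 at day 3 against day 0 (0.41 ± 1.06) and LEF1-AS1 at day 30 against day 9 (-0.21 ± 0.76). MEF2C-AS1 at day 90 against day 30 was another (-0.29 ± 0.73). No share over all 527 named pairs stands beside these counts, so nothing is read from them. At day 1 the log2 fold change of LEF1-AS1 was 3.82 ± 0.92 and that of LEF1 4.77 ± 0.39. At day 9 against day 3, TBX5-AS1 differed by 4.98 ± 0.63 and TBX5 by 5.62 ± 0.55, and MEF2C-AS1 by 4.49 ± 0.81, a difference of -2.21 from the change of MEF2C. The pair farthest apart was TRDN-AS1 and TRDN from day 9 to day 30, 6.69 apart on the log2 scale.

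**Figure D4:**
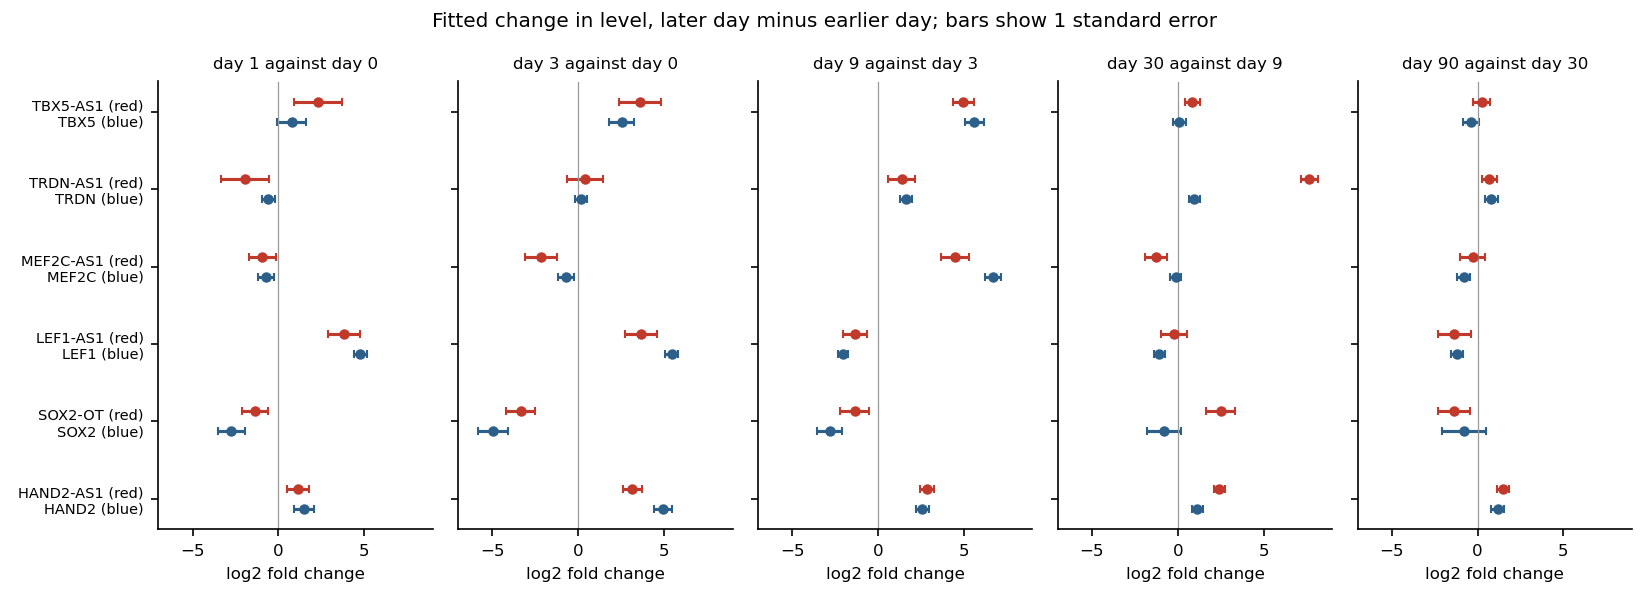
Log2 fold change (x axis) of each noncoding transcript in red and of its coding gene in blue, with 1 panel for each of the 5 comparisons and bars of 1 standard error. TRDN-AS1 and TRDN from day 9 to day 30 lie farthest apart, at 7.65 and 0.96.

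Deviation between wells of the same group was not used to choose the 6 transcripts, so it was tested. For every tested gene named as an antisense or overlapping transcript of another tested gene, 527 pairs in all, the deviation of its log2 CPM from the group mean was correlated with that of its coding gene over the 44 libraries, by a two-sided permutation test within groups. Of the 527 pairs 75 (14.2%) had an adjusted p under 0.05, 64 with r above 0 and 11 with r below 0, and the median r was 0.115. HAND2-AS1 and HAND2 gave r = 0.768 (permutation p = 1e-05, the smallest the permutations can give, adjusted p = 0.000878; rho = 0.783, adjusted p = 0.000878) and deviated to the same side in 37 of 44 wells. TBX5-AS1 and TBX5 gave r = 0.729 (permutation p = 1e-05, adjusted p = 0.000878; rho = 0.722, adjusted p = 0.000878), to the same side in 36 of 44 wells. They ranked 11 and 18 among the 527 pairs. Without the 2 wells farthest in the coding gene, r was 0.805 and 0.745, and within the 5 sequencing lanes it ranged from 0.711 to 0.913 and from 0.684 to 0.789. The HAND2 pair shares 867 exon bases and the TBX5 pair 252, while the TRDN pair shares 0. Whether the counting used the strand is not stated, so reads from shared exons could have been given to either gene. The part of shared exons in r was not tested.

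The remaining pairs followed each other less closely or not measurably. SOX2-OT and SOX2 gave r = 0.584 (permutation p = 0.00359, adjusted p = 0.0291; rho = 0.453, adjusted p = 0.0837). That call was lost without the 2 farthest wells (r = 0.487, adjusted p = 0.182), without days 14, 20 and 30 (r = 0.182, adjusted p = 0.526) and without any of 11 single libraries, with the lowest r, 0.449, without day 30 replicate 10. LEF1-AS1 and LEF1 gave r = 0.460 (permutation p = 0.0191, adjusted p = 0.0922), with rho = 0.494 (adjusted p = 0.0476), and r was 0.408 without the 2 farthest wells. MEF2C-AS1 and MEF2C gave r = 0.189 (permutation p = 0.409, adjusted p = 0.663; rho = 0.227, adjusted p = 0.501), and TRDN-AS1 and TRDN gave r = 0.0935 (permutation p = 0.602, adjusted p = 0.809; rho = 0.148, adjusted p = 0.646). Within lanes r ranged from -0.433 to 0.564 for MEF2C and from -0.424 to 0.522 for TRDN, with 4 and 2 of the 5 lanes above 0. A p above the threshold does not show that a pair deviated independently, and most early wells of TRDN-AS1 lie at the floor. On the TPM scale TRDN-AS1 and TRDN were called (r = 0.564, adjusted p = 0.00539), as were 331 of the 527 pairs.

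**Figure D5:**
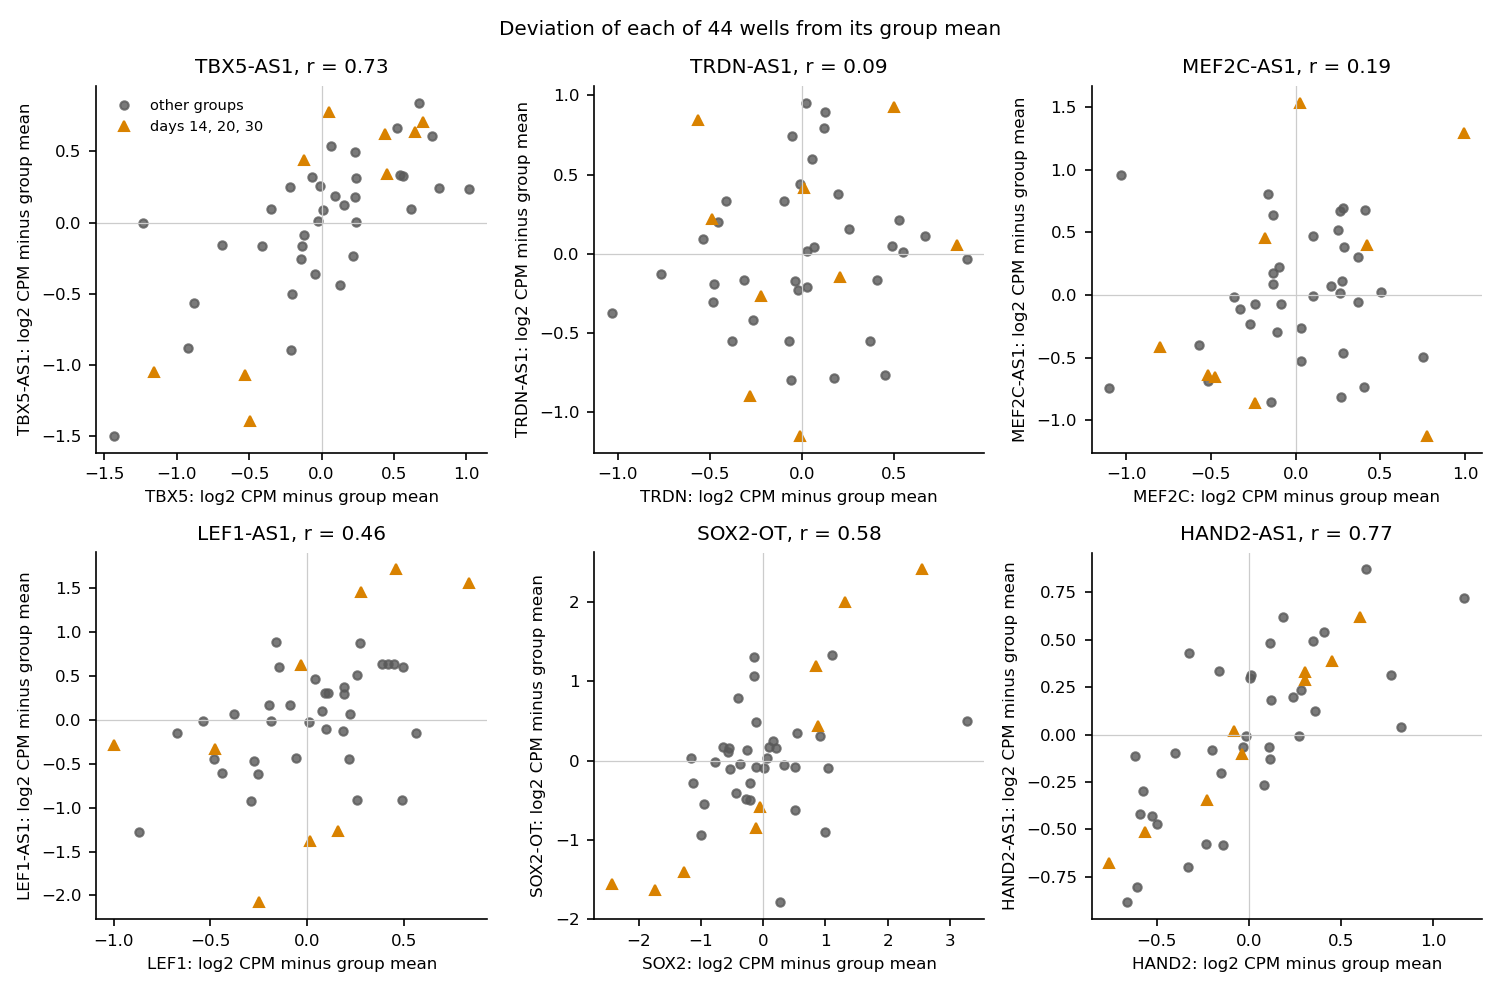
Deviation of log2 CPM from the group mean in each of the 44 wells, for the coding gene (x axis) and its noncoding transcript (y axis). Wells of the HAND2 pair (r = 0.768) and the TBX5 pair (r = 0.729) lie along a rising line, and those of the TRDN pair (r = 0.0935) do not. The HAND2 and TBX5 pairs share exon bases and the TRDN pair shares 0, and the part of this in r was not tested.

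Across the 6 loci, a noncoding transcript deviated most with its own coding gene in 4 cases. For HAND2-AS1 the next highest of the 6 coding genes was TBX5 (r = 0.520), for TBX5-AS1 it was LEF1 (r = 0.558), for SOX2-OT LEF1 (r = 0.409) and for LEF1-AS1 TBX5 (r = 0.382). MEF2C-AS1 deviated most with TRDN (r = 0.576) and TRDN-AS1 with MEF2C (r = 0.238). These values are given as a description with no test. Of the 54 relations of the 6 transcripts with marker sums, RIN and depth, 4 passed by Pearson's r and 6 by rho. By rho only, SOX2-OT passed against the heart muscle sum (r = -0.502, permutation adjusted p = 0.0518; rho = -0.503, adjusted p = 0.0454). MEF2C-AS1 did so against the smooth muscle and fibroblast sum (r = -0.446, permutation adjusted p = 0.173; rho = -0.543, adjusted p = 0.0402). SOX2-OT with depth gave r = -0.729 (permutation p = 0.00576, adjusted p = 0.0518), which did not pass. MEF2C-AS1 deviated with the sum of the streak and mesoderm markers TBXT, EOMES, MIXL1 and MESP1 (r = 0.759, permutation p = 4e-05, adjusted p = 0.00108; rho = 0.694, adjusted p = 0.00162) and against the endoderm and liver sum (r = -0.634, permutation p = 0.00016, adjusted p = 0.00288; rho = -0.629, adjusted p = 0.00360). Without the 2 farthest wells these were 0.672 and -0.604. The streak sum was low late, at 2.67 to 13.8 CPM in the day 20 wells and 2.02 to 4.09 at day 90. With RIN and depth, MEF2C-AS1 gave r = -0.461 (permutation p = 0.0459, adjusted p = 0.177) and r = -0.483 (permutation p = 0.0505, adjusted p = 0.182), neither of which passed. The part of RIN and depth in its relation with the markers was not tested. LEF1-AS1 deviated against the neural sum (r = -0.548, permutation p = 0.00128, adjusted p = 0.0173; rho = -0.577, adjusted p = 0.0111), and r was -0.544 without the 2 farthest wells. In the late wells most of that sum was NES, and its markers were not tested 1 by 1. With RIN and depth LEF1-AS1 gave r = -0.503 (permutation p = 0.0418, adjusted p = 0.174) and r = -0.531 (permutation p = 0.0717, adjusted p = 0.215), neither of which passed. HAND2-AS1 and TBX5-AS1 showed r = 0.506 (permutation p = 0.00892, adjusted p = 0.0688; rho = 0.408, adjusted p = 0.178) and r = 0.110 (permutation p = 0.467, adjusted p = 0.751; rho = 0.104, adjusted p = 0.780) with the heart muscle sum, neither of which passed.

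The 12 tested coding genes nearest to the span of each pair, on either side and outside it, lay 7.01 kb (FXR1) to 957 kb (ATP11B) from its edge. Of these, 6 were called in 0 of the 5 comparisons by edgeR: TMEM161B and CETN3 beside MEF2C, HADH and RPL34 beside LEF1, FXR1 beside SOX2-OT and FBXO8 beside HAND2. Their log2 fold changes lay between -0.56 and 0.81 in the 30 gene-by-comparison values, of which 9 had an unadjusted p under 0.05 and 0 were called in DESeq2. RBM19 beside TBX5 and ATP11B beside SOX2 were called in 1 of 5 each, and NKAIN2 beside TRDN in 3. By contrast TBX3, the T-box paralogue beside TBX5 and a factor of the conduction system, rose from 1.00 CPM at day 0 to 74.5 at day 3 (log2 fold change 6.21 ± 0.39, edgeR adjusted p = 4.65e-15), when TBX5-AS1 was at 0.192 CPM. It fell from 115 at day 9 to 14.3 at day 30 (-3.00 ± 0.31, adjusted p = 1.39e-09), while TBX5-AS1 went from 6.18 to 11.2. Beside HAND2, SCRG1 rose from 0.0381 CPM at day 3 to 0.873 at day 9 (4.34 ± 0.91, adjusted p = 0.000246) and from 2.31 to 13.6 ± 11.2 between days 30 and 90 (2.57 ± 0.66, adjusted p = 0.0112), the days on which HAND2-AS1 was also higher. Beside TRDN, CLVS2 rose by 3.51 ± 0.73 from day 0 to day 3 (adjusted p = 0.000311) and fell by 5.17 from day 3 to day 9 (adjusted p = 6.39e-08), while TRDN-AS1 was at or below 0.393 CPM through day 9. NKAIN2 also rose, from 0.157 CPM at day 0 to 2.19 at day 3 (3.76 ± 0.70, adjusted p = 7.88e-05), and fell to 0.841 at day 9 (-1.37 ± 0.53, adjusted p = 0.0392).

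Other noncoding transcripts beside developmental transcription factor genes behaved in varied ways. Of 32 listed, 31 were matched and 27 tested. The list was drawn up with earlier results of these data known. Its counts beside the shares of all genes, and the p-values of its genes, are therefore given as a description, and nothing is read from them. At day 1 against day 0, 4 of the 27 rose and 6 fell (3.86% and 9.66% of all tested genes), with a median log2 fold change of -0.25 against -0.03 for all genes. At day 3 against day 0, 13 rose and 4 fell (7.81% and 8.76% of all), with a median of 3.13 against 0.02. EVX1-AS, beside a homeobox gene of the posterior streak, held 0 counts in all day 0 wells and stood at 2.11 ± 1.07 CPM at day 1. HOXB-AS1 rose by 7.12 ± 0.73 by day 3 (edgeR adjusted p = 1.45e-09), to 2.27 ± 0.407 CPM, and HOXA-AS2 by 6.16 ± 1.26 (adjusted p = 0.000263).

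At day 9 against day 3, 8 of the 27 rose and 3 fell (12.3% and 8.88% of all), with a median of -0.21. TBX2-AS1, beside another T-box gene of the heart, rose by 4.24 ± 0.63 (edgeR adjusted p = 1.45e-06), from 0.436 to 8.32 ± 2.83 CPM, and WT1-AS, beside the epicardial factor gene WT1, rose by 5.01 ± 1.02 (adjusted p = 0.000165). LHX1-DT fell by 4.44 (adjusted p = 2.66e-07). At day 30 against day 9, 2 rose and 5 fell (9.69% and 9.25% of all; median -0.44), among them GATA2-AS1 (-3.17 ± 0.62, adjusted p = 0.000137). At day 90 against day 30 (2.65% and 2.44% of all), 2 rose, WT1-AS (2.88 ± 0.81, adjusted p = 0.0218) and NR2F2-AS1 (2.23 ± 0.70, adjusted p = 0.0398), and 0 fell by edgeR. For falls, 0 passed an unadjusted p of 0.05 and 0 passed in DESeq2.

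A list of antisense RNAs beside muscle and heart genes gave few members to test. Of 20 listed, 17 were matched and 12 tested. The list also held TNFRSF14-AS1, which was tested, and RBM5-AS1, which the filter removed. Their partner genes are not particular to muscle or heart. This list too was drawn up with earlier results known, so its counts and p-values carry the same limit. In the order of the comparisons, 0, 1, 3, 2 and 0 rose (3.86%, 7.81%, 12.3%, 9.69% and 2.65% of all tested genes) and 1, 0, 0, 2 and 0 fell (9.66%, 8.76%, 8.88%, 9.25% and 2.44% of all), with median log2 fold changes of -0.46, -0.05, 0.68, 0.39 and -0.64. The counts of 0 are edgeR's, and DESeq2 also gave 0 in each of these places. At an unadjusted p under 0.05, 2 were higher at day 1 against day 0, 4 lower at day 3 against day 0, 1 lower at day 9 against day 3, and 1 higher and 0 lower at day 90 against day 30. KCNQ1OT1, the long transcript that silences genes of its imprinted domain, fell from 110 ± 4.47 CPM at day 0 to 41.1 ± 6.96 at day 1 (-1.41 ± 0.33, adjusted p = 0.00153). It was back at 163 ± 27.8 CPM by day 9 (1.40 ± 0.30 over day 3, adjusted p = 0.000346). TTN-AS1, opposite the giant sarcomere protein titin, fell from 9.96 ± 1.49 CPM at day 9 to 3.09 ± 0.922 at day 30 (-1.68 ± 0.29, adjusted p = 2.06e-05), in the interval in which TRDN-AS1 went from 0.209 to 42.7 CPM.

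Genes with the most similar course over all 44 libraries are given as a description, by Pearson's r of log2 CPM among 22954 genes, and only genes on other chromosomes with a group mean of at least 5 CPM are named beside the coding gene's own rank. For TBX5-AS1 its own coding gene ranked 1 (r = 0.975), followed among the named genes by CHRM2 (0.972), the muscarinic receptor of the heart, ZFPM2 (0.968), a GATA4 cofactor, and UNC45B (0.964), a myosin chaperone. For HAND2-AS1, HAND2 ranked 5 (r = 0.957), beside CAP2 (0.962), GSTK1 (0.959) and TCEA3 (0.953). For LEF1-AS1, LEF1 ranked 2 (r = 0.805), beside ZNF497 (0.807), the streak gene EVX1 (0.773) and FZD10-DT (0.766), which lies next to a Wnt receptor gene. MEF2C ranked 25 for MEF2C-AS1 (r = 0.798), beside LGI2 (0.839), CDH13 (0.839) and KDM6A (0.827). SOX2 ranked 159 for SOX2-OT (r = 0.818), beside FEZF1 (0.927), CHRNB2 (0.919) and SYT12 (0.909). TRDN ranked 1759 for TRDN-AS1 (r = 0.662), far behind GPR22 (0.968), HSPB3 (0.960) and STK39 (0.953), whose highest group was day 90 in all 3 cases. Points from the same group share the day, and many early wells of TRDN-AS1 and LEF1-AS1 lie at the floor.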

How the data were processed

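The authors deposited estimated counts per gene (93.8% of values whole) and TPM for the same 44 libraries, and a table with an RNA integrity score and sequencing lane for each. Per the submitters' processing notes, cutadapt, STAR 2.5.2b, RSEM 1.2.31 and hg38 were used; the annotation and the use of strand are not given in the sources used here. Per the labels, libraries were stranded total RNA. The labels give 5 wells at day 11 and the series text 3; all 5 were used. Symbols and coordinates came from GENCODE 29 (56769 of 60499 identifiers matched), promoter sequences from RefSeq. The 6 transcripts and all lists were chosen with earlier results of these data known.

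Counts were rounded and fitted with edgeR 4.0.16 in R 4.3.3 (TMM, filterByExpr, quasi-likelihood test, 1 mean per group, all 44 libraries, Benjamini-Hochberg over 22955 genes). A call needed an adjusted p under 0.05 and an absolute log2 fold change of at least 1. Co-deviation used log2 CPM with a prior count of 2 and 100000 permutations within groups (5000 where a library was left out). Alternatives used DESeq2 1.42.0, limma 3.58.1 on log2(TPM + 1) and log2(TPM + 0.1), RLE factors, other filters, a replicate block, lane with RIN, and each library left out. Named genes were the pairs, the nearest tested coding gene on each side, the 3 most similar genes on other chromosomes, and up to 4 called genes of a list with the largest fold changes.

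Counting precision follows depth (6937136 to 33498022 counts), and TMM and TPM set different baselines: the median log2 fold change on TPM differed from that on counts by 0.18, 0.29, -0.67, 0.30 and -0.87 in the 5 comparisons. Tested on simulated data, edgeR recovered 60% of 200 changed genes at day 9 against day 3 and called 6 unchanged ones among 22955 genes. The co-deviation test recovered 97.5% of 40 related pairs among 527, with a median r of 0.73, and called 2 unrelated pairs. Its simulated deviations were normal, with no low counts, so that share does not hold for scarce or weakly related pairs. In 64 pairs of replicates 0 held identical values.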

Additional observations from a re-analysis of the deposited data

Results flagged for a closer look

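TBX5 at day 9 stood at 76.2 CPM in replicate 1 and between 37.5 and 46.3 CPM in the other 4 wells, a gap wider than the usual limit for 5 values. SOX2 at day 7 stood at 14.5 CPM in replicate 10 and between 0.592 and 1.03 CPM in the other 4 wells. SOX2-OT gave no such gap at day 7, where its wells ranged from 0.159 to 0.369 CPM. Of 48 sets of wells checked in this way 2 stood out, and chance alone flags about 1 in 20.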

How the results depend on the processing

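Low counts limit TRDN-AS1 before its late rise, SOX2-OT, LEF1-AS1 and MEF2C-AS1, with medians over the 44 libraries of 4, 7, 11 and 13 counts and 20, 6, 7 and 8 libraries at or under 3 counts. The number of called genes was 969 and 1565 with limma on log2(TPM + 1) and log2(TPM + 0.1) at day 1 against day 0 (3102 on counts), 1730 on log2(TPM + 1) at day 3 against day 0 (3803), 1519 on log2(TPM + 1) at day 30 against day 9 (4347), and 3463 on log2(TPM + 0.1) at day 90 against day 30 (1168), where fitting only the 2 groups compared left 3. With limma on log2(TPM + 1), which changes test and scale together, the split of higher and lower calls moved from 885 and 2217 to 479 and 490, from 1792 and 2011 to 1158 and 572, from 2832 and 2038 to 588 and 3174, from 2224 and 2123 to 1041 and 478, and from 608 and 560 to 76 and 1360. With a library left out, the 5 counts ranged from 2431 to 2724, 3229 to 3348, 4318 to 4800, 3939 to 4456 and 742 (without day 30 replicate 3) to 1819 (without day 30 replicate 10).

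Pairs called for co-deviation numbered 331 on TPM, 49 without days 14, 20 and 30, 42 without the 2 farthest wells, and 57 to 83 with 1 library left out. On TPM, r was 0.564 for TRDN and 0.441 for LEF1, both then called. SOX2 lost its call without days 14, 20 and 30 (r = 0.182) and without the 2 farthest wells (r = 0.487). With 1 library left out, r ranged from 0.744 to 0.815 for HAND2, 0.664 to 0.798 for TBX5, 0.449 to 0.656 for SOX2, 0.365 to 0.527 for LEF1 (called without day 5 replicate 4), 0.0255 to 0.369 for MEF2C and 0.0202 to 0.185 for TRDN. With lane and RIN removed, r was 0.798 for HAND2, 0.751 for TBX5 and 0.670 for SOX2. It was lower for LEF1, at 0.277 (permutation test, adjusted p = 0.149), and stood at 0.233 for MEF2C and 0.113 for TRDN.

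The log2 fold change of SOX2-OT ranged with 1 library left out from -0.15 to 3.09 at day 30 against day 9 and from -2.23 to 1.26 at day 90 against day 30. Replicate numbers were not taken to pair wells, since in 0 of the 4 comparisons that share numbers did every pair exceed a correlation of 0.1 (days 30 and 90 share none). With 3 pairs for each comparison, this rule cannot exclude pairing. At day 9 against day 3, 2 of the 3 pairs correlated best with their own number, with a highest r of 0.154. With the replicate number as a block, called genes numbered 3210, 3930, 4911, 4144 and 1336 and called pairs 106. In the block fit r was 0.826 for HAND2, 0.702 for TBX5, 0.612 for SOX2, 0.336 for LEF1, 0.117 for MEF2C and 0.0247 for TRDN, with no call among the 6 changed. HAND2 at day 90 against day 30 (adjusted p = 0.0913) and LEF1 at day 30 against day 9 (-0.997) were not called with the block. SOX2-OT changed sign in both of these comparisons without day 30 replicate 10. Of 240 values of coding genes under other settings, 218 kept direction and call, 13 lost and 9 gained the call. Where no value above shows it, the cause was not tested.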
